A study of Mus musculus with 2 samples.

Results

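The genes described here encode macrophage colony-stimulating factor and the receptors through which colony-stimulating factors and related growth signals act on myeloid cells: Csf1, Csf1r, Csf2ra, Csf2rb, Csf2rb2, Csf3r, Flt3 and Kit. They were taken by name, and all 8 are among the 21938 protein-coding genes of GENCODE M21 on the mouse genome mm10. Chromatin immunoprecipitation with sequencing of H3K79me2, a dimethylated lysine of histone H3, was done on bone-marrow-derived macrophages (BMDM) of strain C57BL/6J that received no stimulation. The 2 biological replicates form 1 group, so no comparison between conditions and no test was possible. The labels give 10 ng as the starting DNA of each library, 1 donor identifier for both and neither sex nor age. The labels do not say whether the replicates came from separate animals or cultures, so the spread between them may be technical.

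Csf1 encodes the growth factor on which macrophages grown from bone marrow depend, and Csf1r its receptor tyrosine kinase. Csf2ra encodes the ligand-specific alpha chain of the receptor for granulocyte-macrophage colony-stimulating factor. Csf2rb encodes the beta chain that this receptor shares with those for interleukin 3 and interleukin 5, and Csf2rb2 a second beta chain, found in the mouse, that serves interleukin 3. Csf3r encodes the receptor for granulocyte colony-stimulating factor and is best known for its role in neutrophils. Flt3 and Kit encode receptor tyrosine kinases of the same class as Csf1r, known for their roles in blood progenitors, with Flt3 also acting in dendritic cells and Kit in mast cells. H3K79me2 is written by the enzyme Dot1l and is typically found downstream of the start of transcribed genes.

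Of 4 deposited peak lists, one was made from replicate 1 alone, one from replicate 2 alone, one from the pooled reads of both, and the replicated list from both replicates. They hold 22979, 31577, 26838 and 15559 peaks and cover 63.5, 114.1, 105.6 and 93.2 Mb. The 4 lists rest on 2 libraries, so agreement among them is not separate support from each. Reads were not used here, so the depth is unknown, and a gene with no peak is one with no peak in that list, not one shown to lack the mark. In a bulk sample, a mark carried by few cells and a weak mark carried by all cannot be told apart. Below, a marked gene has peaks over 200 bp or more of the first 3 kb behind any annotated transcript 5′ end, or of the transcript if shorter. Of macrophage marker genes, 10 of 10 were marked in every list, beside 29.7% to 38.4% of all coding genes over the lists. The marker lists were chosen with earlier results of these data known. None of the 10 mast cell markers, 10 progenitor markers, 10 B and T cell markers or 10 fibroblast markers had a covered base in any list. Of 10 neutrophil markers only Mmp8 had one, with 769 bp in replicate 2's list. Of 10 dendritic cell markers, Bst2 and Tcf4 were marked, and neither is restricted to dendritic cells.

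Csf1r, Csf2rb and Csf2rb2 carried H3K79me2 blocks at their starts in every list. Csf1 and Csf3r carried one in replicate 2's list and in the pooled list, and neither had a covered base in replicate 1's list or in the replicated list. Csf2ra, Flt3 and Kit had no covered base in any list. Csf1r had the most covered bases of the family in every list, and Flt3 and Kit, known from progenitors and mast cells, had none. The longest single block was in Csf2rb in the replicated list, 9023 bp against 7445 bp in Csf1r. In replicate 1's list it was in Csf1r, 4771 bp against 3271 bp in Csf2rb.

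In the replicated list 3 of 8 genes were marked, where 32.9% of all coding genes were. In replicate 1's list 3 of 8 were marked, against 29.7% of coding genes. In replicate 2's list the count was 5 of 8, against 38.4%, and in the pooled list 5 of 8, against 37.0%. With the gene's outermost 5′ end alone, the replicated list marked 2 of 8, against 30.3% of coding genes. The outermost annotated start of Csf1r lies 3024 bp from its nearest block, just beyond the window of 3 kb. With a window of 5 kb the count at the outermost 5′ end was 3 of 8, so this difference depends on the window. Shares over 8 genes are coarse, and the family was not set apart from other genes by these counts. The median of covered bases over the 8 genes was 0 in the replicated list and in replicate 1's, 2846 bp in replicate 2's and 2616 bp in the pooled list. Over all coding genes that median was 0 in each of the 4 lists.

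**Figure D1:**
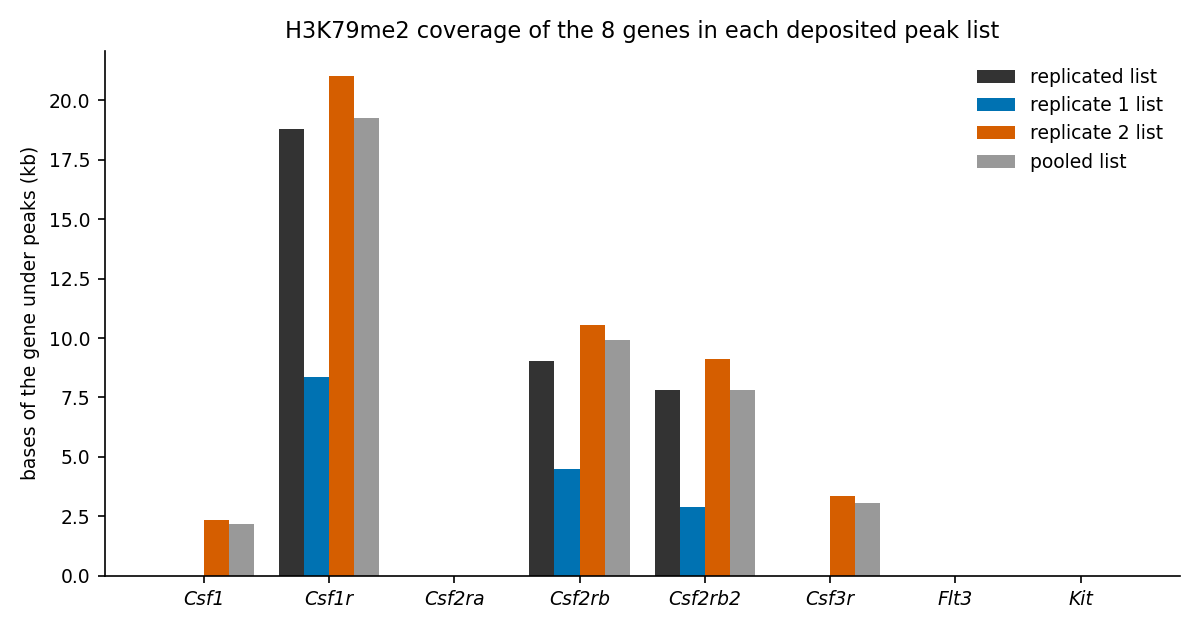
Bases of each of the 8 genes that lie under peaks (vertical axis, kb), with 1 bar for each of the 4 deposited lists, so that each bar is 1 value without an error. Csf1r reached 21040 bp in replicate 2's list and 8375 bp in replicate 1's, Csf1 and Csf3r have bars in replicate 2's and the pooled list only, and Csf2ra, Flt3 and Kit have none.

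The letters just before the starts are shown because the genes differ in how many CG dinucleotides they hold there. The stretches below were read from RefSeq's promoters on GRCm38.p6, in the direction of transcription, and end at the base before the outermost GENCODE 5′ end. Capitals mark CG dinucleotides. They come from Csf2rb2 (chr15:78305722-78305971, minus strand), Csf3r (chr4:126024409-126024549, plus strand), Csf1 (chr3:107760470-107760719, minus strand), Flt3 (chr5:147400490-147400739, minus strand), Kit (chr5:75574737-75574915, plus strand) and Csf2ra (chr19:61228430-61228668, minus strand).
Csf2rb2: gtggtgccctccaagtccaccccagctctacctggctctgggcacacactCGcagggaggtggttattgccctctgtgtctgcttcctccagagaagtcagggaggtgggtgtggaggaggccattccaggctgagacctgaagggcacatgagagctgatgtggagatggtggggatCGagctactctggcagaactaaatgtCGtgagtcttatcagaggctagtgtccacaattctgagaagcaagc
Csf3r: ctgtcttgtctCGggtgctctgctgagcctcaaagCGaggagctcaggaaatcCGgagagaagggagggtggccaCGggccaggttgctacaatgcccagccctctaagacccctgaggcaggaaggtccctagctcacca
Csf1: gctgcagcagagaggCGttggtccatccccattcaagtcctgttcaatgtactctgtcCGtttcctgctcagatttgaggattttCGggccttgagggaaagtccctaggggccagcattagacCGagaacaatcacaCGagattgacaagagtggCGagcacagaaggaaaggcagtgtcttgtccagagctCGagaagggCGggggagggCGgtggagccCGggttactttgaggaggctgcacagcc
Flt3: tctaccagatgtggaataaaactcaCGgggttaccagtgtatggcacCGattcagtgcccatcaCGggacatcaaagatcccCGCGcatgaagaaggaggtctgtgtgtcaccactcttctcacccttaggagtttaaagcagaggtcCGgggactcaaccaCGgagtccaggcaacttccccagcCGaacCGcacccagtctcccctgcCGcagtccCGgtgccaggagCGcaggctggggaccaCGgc
Kit: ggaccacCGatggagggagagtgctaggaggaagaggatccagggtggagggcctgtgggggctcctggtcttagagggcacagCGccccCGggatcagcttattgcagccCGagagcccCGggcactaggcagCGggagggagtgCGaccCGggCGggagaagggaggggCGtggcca
Csf2ra: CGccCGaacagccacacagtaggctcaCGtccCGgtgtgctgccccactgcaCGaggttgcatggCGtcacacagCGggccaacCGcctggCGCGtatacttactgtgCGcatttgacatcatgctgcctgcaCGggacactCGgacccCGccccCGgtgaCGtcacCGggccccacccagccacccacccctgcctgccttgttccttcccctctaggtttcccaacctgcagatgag
The Csf2rb2 stretch holds 3 CG sites in 250 bases and that of Csf3r 4 in 141. The stretches of Csf1, Flt3 and Kit hold 10 in 250, 13 in 250 and 10 in 179, and that of Csf2ra holds the most, 17 in 239. Replicate 2's block and the pooled block covered all 141 bases of the Csf3r stretch, and no list covered a base of the other 5.

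Over the 1 kb centred on the outermost 5′ end of the GENCODE basic set, the ratio of observed to expected CpG was 0.12 for Csf2rb, 0.16 for Csf1r, 0.16 for Csf2rb2 and 0.24 for Csf3r. These are the 4 receptor genes that had a block in any list, and the 3 lowest are those marked in every list. The ratio was 0.44 for Csf2ra, 0.68 for Kit and 0.72 for Flt3, the genes without a covered base, and 0.62 for the ligand gene Csf1. Across the genome the order is the other way round. The median ratio was 0.77 over the 7213 coding genes marked in the replicated list and 0.36 over the 14725 that were not. Of the marked genes, 1.21% had a ratio as low as that of Csf2rb, 2.47% as low as that of Csf1r and 2.37% as low as that of Csf2rb2. Of the genes not marked, these shares were 15.7%, 24.7% and 23.9%. The 3 marked receptor genes are therefore at the CpG-poor end of marked genes, while Flt3 and Kit, with no peak in any list, have starts richer in CpG. Csf2rb and Csf2rb2 are close copies, as described below, so their values are not separate observations. This is a description of 8 genes, with no test.

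**Figure D2:**
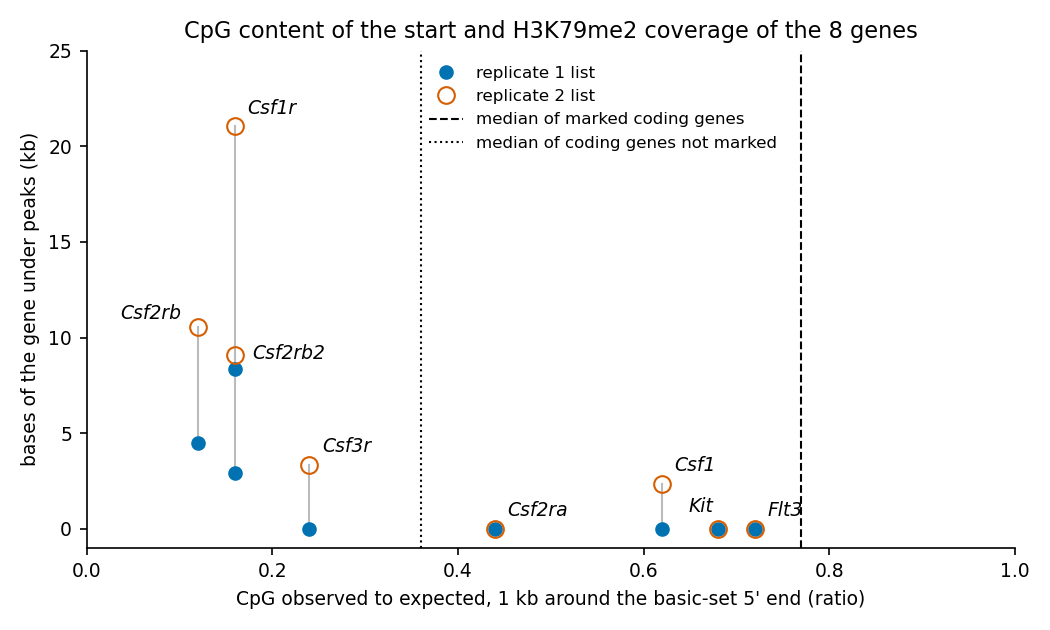
Ratio of observed to expected CpG in the 1 kb around the start (horizontal axis) against bases of the gene under peaks (vertical axis, kb), with filled points for replicate 1's list, open points for replicate 2's and a grey line joining the values of 1 gene. Csf1r and Csf2rb2 share the ratio of 0.16, so their lines overlap; Csf2rb, Csf1r, Csf2rb2 and Csf3r lie left of the dotted median of genes not marked (0.36), and Csf1, Kit and Flt3 lie between it and the dashed median of marked genes (0.77), as does Csf2ra.

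RefSeq's promoter table matched 6 of the 8 genes, all but Csf1r and Csf2rb. In the 250 bases before each listed start, both strands were searched for 6 motifs of factors active in blood cells or of the core promoter. GAGGAA, the core of sites for PU.1, the master factor of macrophages, is in 23.3% of 32851 promoters of that length. It was found in Csf2ra, Csf2rb2, Csf3r and Kit and not in Csf1 or Flt3. It thus occurred in genes with and without a covered base. Of the genes marked in every list only Csf2rb2 was searched, so marked and unmarked genes could not be compared. In Csf2rb2 the match begins at base -167 from the start, on the opposite strand, where the printed letters read ttcctc. In Csf3r it begins at base -86 from the listed start, beyond the end of the printed stretch, and in Kit at base -223. Csf2ra holds it at bases -14 and -8 from the listed start, and neither match lies wholly within the printed stretch. Beside them, at base -31, is a match to the C/EBP motif TTNCNNAA, which is present in 36.8% of promoters. The Runx core TGTGGT (14.0% of promoters), the AP-1 motif TGANTCA (6.75%), the GATA motif AGATAA (9.99%) and the TATA box TATAAA (12.4%) had no match in the 6. Each search took only the letters given, so other forms of a site were not counted. The printed Csf2rb2 letters ttatca read TGATAA on the opposite strand, which was not counted as a GATA match. A match is a run of letters and not a bound site.

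Csf1r (ENSMUSG00000024621) spans chr18:61100598-61132149 on the plus strand, 31552 bp in which the replicated list covered 18778 bp, or 59.5%. Replicate 1's list covered 8375 bp (26.5%), replicate 2's 21040 bp (66.7%) and the pooled list 19259 bp (61.0%). The mean over the replicates' own lists was 14708 ± 8956 bp (SD, n = 2). Csf1r had more covered bases than 80.7% of marked genes in the replicated list, 67.8% in replicate 1's and 82.1% in replicate 2's. The highest fold of a peak over the control, a value of the authors whose scale may differ between lists, was 23.3 in the replicated list, where the median peak had 7.37. It was 16.3 in replicate 1's list (median peak 4.34) and 29.1 in replicate 2's (median peak 4.70). In each replicate the gene's highest peak was thus above its list's median, while other blocks of the gene were below it. Those blocks had highest folds of 3.1 and 3.7 in replicate 1's list and of 2.7 to 4.1 in replicate 2's. The highest peaks of other marked genes were not compared.

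GENCODE gives Csf1r 6 distinct 5′ ends, and 5 of them were marked in every list. Those 5 lie between 61105572 and 61105879 and include the starts of both basic-set transcripts, Csf1r-201 and Csf1r-202. The remaining one, that of the non-coding processed transcript Csf1r-206 at 61100598, had 0 bp covered in its first 3 kb in every list, and the nearest block edge was 3024 bp away in the replicated list and 4219 bp away in replicate 1's. The peaks lay at the coding transcripts' starts and not at the outermost annotated one.

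The replicated list held 3 blocks in Csf1r, which the pooled list also held with the same ends and highest folds. The first, chr18:61103622-61108350, ran from 1950 bp upstream of the Csf1r-201 start to 2778 bp downstream of it. The second, chr18:61108743-61116187, ran from 3171 to 10615 bp downstream. The third, chr18:61120874-61127477, ran from 15302 to 21905 bp downstream, with a highest fold of 6.5 against 23.3 and 22.4 in the first and second. The third block thus had the lowest fold, and no list held a block past intron 16 of Csf1r-202. In replicate 1's list 4 shorter blocks lay inside these, at -755 to -91, 224 to 2119, 3236 to 8006 and 15448 to 16490 bp from the same start.

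The reach of the first block upstream of the Csf1r-201 start was uncommon among marked genes. That upstream part still lies inside the annotated gene, because the non-coding Csf1r-206 starts at 61100598. The comparison set aside genes with another coding gene upstream, and not those with further upstream starts of their own. In the replicated list, 550 of 7213 marked genes (7.63%) had their outermost basic-set 5′ end inside a block at all. Of these, 258 had no other coding gene within 5 kb upstream, their blocks reached a median of 76 bp upstream, and 20 (7.75%) reached as far as that of Csf1r. In replicate 2's list the reach was 1954 bp, matched or passed by 35 of 433 such genes (8.08%). In replicate 1's list the block nearest to the Csf1r-201 start ended 91 bp before it. In that list 2 of the 6 Csf1r 5′ ends lay inside a block, against 5 in the other 3 lists.

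A gap of 284 bp between the first and second blocks, chr18:61108454-61108737, was free of peaks in all 4 lists. It lies 2882 to 3165 bp downstream of the Csf1r-201 start, in intron 2 of Csf1r-201 and intron 1 of Csf1r-202. As background, an intronic enhancer that controls Csf1r in macrophages, known as FIRE, lies in the intron after the first coding exon, and its coordinates were not used here. A wider gap common to all lists, 2219 bp at chr18:61117983-61120201, lies between the second replicated block and the third, from intron 9 to intron 10 of Csf1r-202. Joining peaks across gaps of up to 500 bp made the first and second replicated blocks 1 block of 12566 bp. Within Csf1r-202, 10 of 21 exons had a covered base in the replicated list, 5 in replicate 1's and 13 in replicate 2's. Introns were covered more than exons, at 68.8% against 35.7% in the replicated list, 30.9% against 21.0% in replicate 1's and 77.4% against 44.5% in replicate 2's. Because no block lay past intron 16, the last exons were uncovered, and this contrast was not separated from distance to the start.

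Pdgfrb, the receptor tyrosine kinase gene 15536 bp upstream of Csf1r, had no covered base in any list. Hmgxb3 overlaps the last 873 bp of Csf1r on the opposite strand and was marked in every list, with 5998, 3420 and 7781 bp in the replicated, replicate 1 and replicate 2 lists. Slc26a2, 60769 bp downstream, was marked as well. The nearest block upstream of Csf1r was 251683 bp away in the replicated list.

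**Figure D3:**
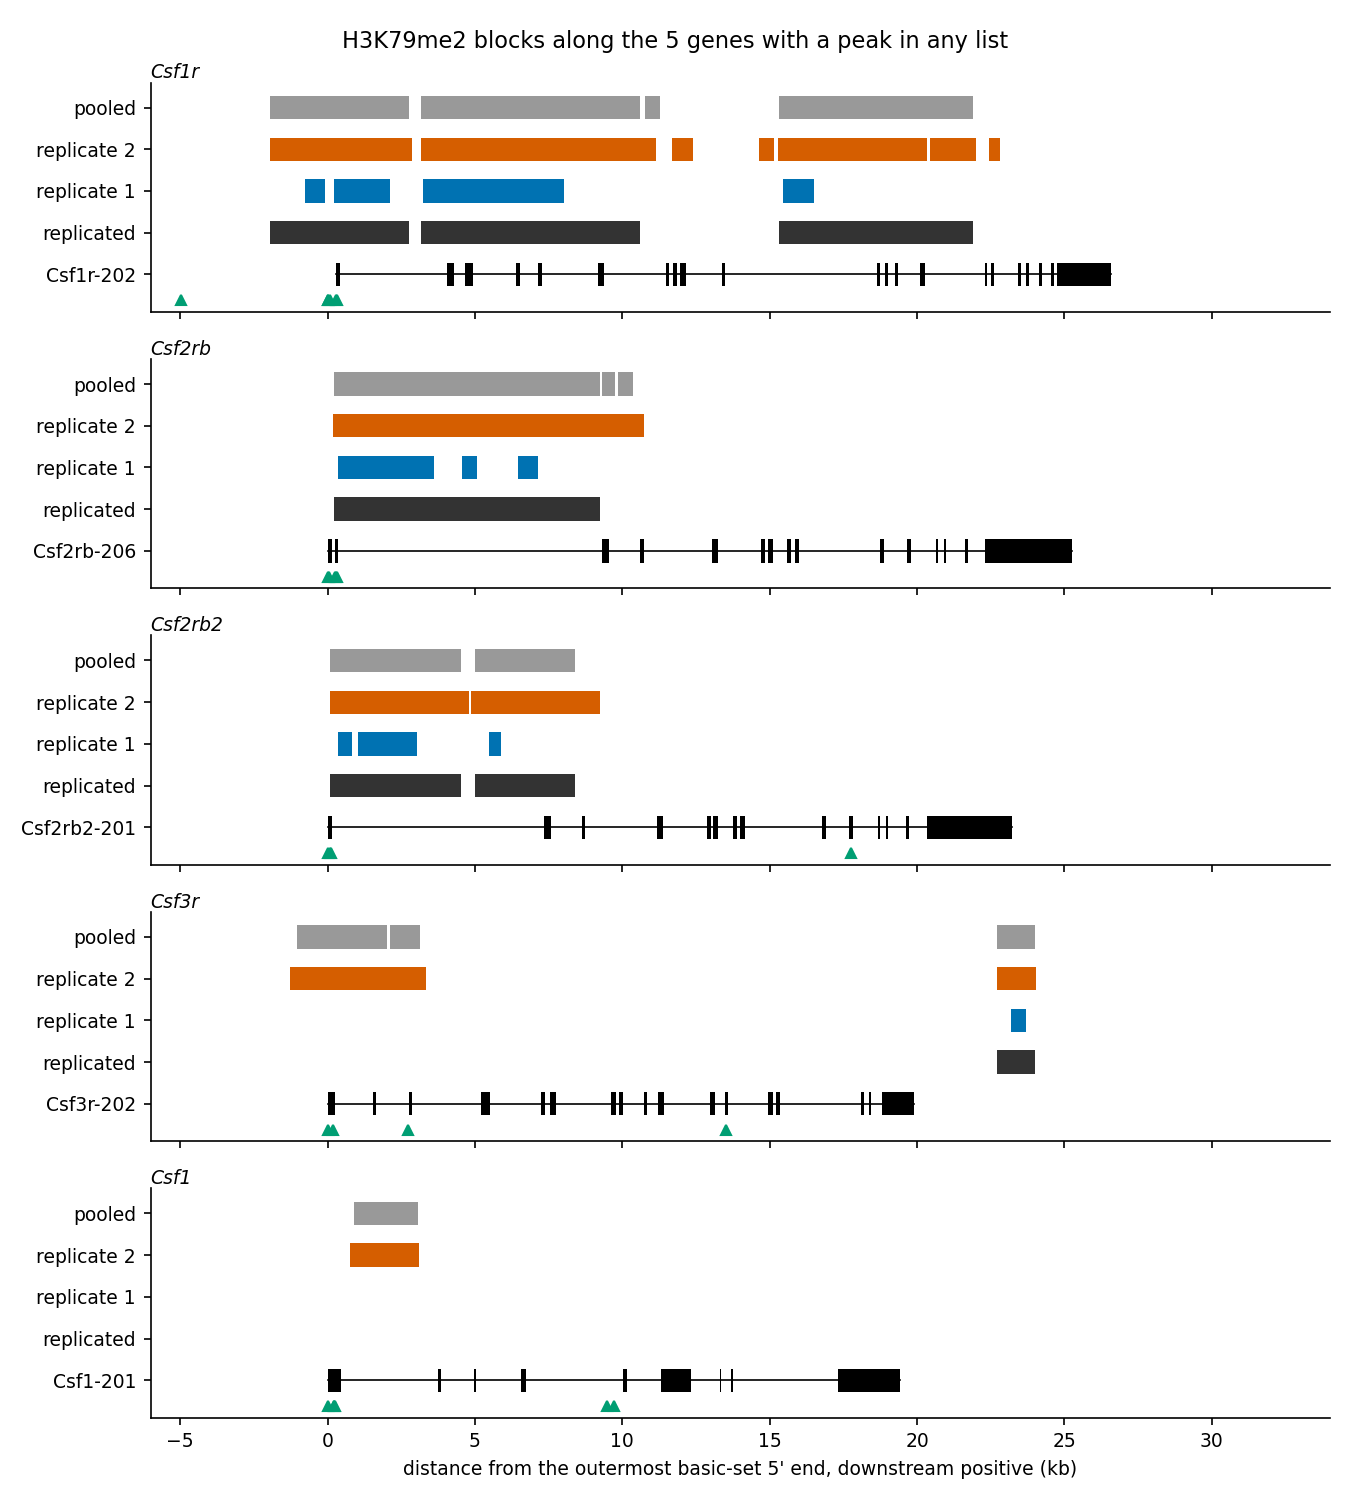
Position of every block along the 5 genes with a peak in any list, as distance in kb from the outermost basic-set 5′ end, with 1 row of bars for each of the 4 lists, the exons of the longest basic coding transcript as black boxes and annotated 5′ ends as green triangles. The Csf1r blocks start upstream of the coding transcripts' starts and share a gap near 3 kb in every list, Csf2rb and Csf2rb2 blocks lie in the first introns, and the bars of Csf3r beyond 22 kb belong to its neighbour Mrps15.

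Csf1 (ENSMUSG00000014599), the gene of the ligand of Csf1r, spans chr3:107741048-107760469 on the minus strand. It had 0 bp covered in the replicated list, 0 bp in replicate 1's, 2353 bp (12.1%) in replicate 2's and 2190 bp (11.3%) in the pooled list. The replicates' values average 1176 ± 1664 bp (SD, n = 2). The block of replicate 2, chr3:107757361-107759713, lies wholly in intron 1, from 756 to 3108 bp downstream of the outermost start, with a fold of 6.11. It marks 4 of the gene's 6 distinct 5′ ends, those grouped at the outermost start, and contains none of them. The downstream neighbour Ahcyl1, 44487 bp away, was marked in every list, and the upstream neighbour Eps8l3 in none. The lists of the 2 replicates thus differ over the gene of the macrophages' own growth factor. That replicate 1's list holds no peak there does not show that the mark was absent.

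Csf2rb (ENSMUSG00000071713) and Csf2rb2 (ENSMUSG00000071714) are transcribed away from each other on chromosome 15, with starts 20030 bp apart. Csf2rb spans chr15:78325752-78353847 on the plus strand. The replicated list covered 9023 bp of it (32.1%), replicate 1's list 4494 bp (16.0%), replicate 2's 10546 bp (37.5%) and the pooled list 9935 bp (35.4%), with 7520 ± 4279 bp (SD, n = 2) over the replicates' own lists. Csf2rb2 spans chr15:78282507-78305721 on the minus strand. It had 7824 bp (33.7%) covered in the replicated list, 2891 bp (12.5%) in replicate 1's, 9111 bp (39.2%) in replicate 2's and 7824 bp (33.7%) in the pooled list, with 6001 ± 4398 bp (SD, n = 2). Csf2rb was covered over more bases than Csf2rb2 in each list, and both shares were near the median of marked genes in the replicated list (32.5%). In replicate 1's list both were below that list's median of 22.2%, and in replicate 2's both were above its 33.7%.

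In Csf2rb the replicated list held 1 block, chr15:78325966-78334988, from 214 to 9236 bp downstream of the outermost start and with a fold of 20. It lies almost wholly in introns 1 and 2 of Csf2rb-206 and covers 1 of its 15 exons, 43.9% of intron bases, 1.76% of exon bases and none of 2688 coding bases. Replicate 2's block, 10546 bp long with a fold of 28.5, ended in intron 4 and reached 212 coding bases. In replicate 1's list 3 blocks of 3271, 526 and 697 bp, with a highest fold of 8.06, lay in intron 2. All 5 distinct 5′ ends of Csf2rb were marked in every list, while 3 lay inside a block in the replicated and replicate 2 lists and 0 in replicate 1's.

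In Csf2rb2 the replicated list held a block from 74 to 4532 bp downstream of the outermost start (chr15:78301189-78305647) and a second from 5018 to 8382 bp (chr15:78297339-78300703), with folds of 13.1 and 6.4. Replicate 1's 3 blocks lay in intron 1, with a highest fold of 5.42. Replicate 2's 2 blocks ran from 73 to 9253 bp downstream with a break of 70 bp in intron 1, the only gap common to all lists in this gene, and had a highest fold of 19.3. Of 4 distinct 5′ ends, 3 were marked in every list. The unmarked one belongs to a transcript annotated as subject to nonsense-mediated decay, which starts 9392 bp from the nearest edge in the replicated list. In the replicated, replicate 2 and pooled lists the blocks of both beta chain genes thus ran through much of the long intron behind the first exons and ended before most of the coding exons, and in replicate 1's list they were shorter and broken.

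The 2 beta chain genes are close copies in their coding sequences, which match at 2503 of 2628 aligned bases (95.2%). Of the first 1 kb of the genes, 787 bases could be aligned, and 721 of them (91.6%) match. Of stretches of 36 bases that meet the replicated Csf2rb block, 16.0% also occur in Csf2rb2, and of those that meet the Csf2rb2 blocks 21.4% also occur in Csf2rb. At 50 bases these shares were 10.8% and 14.3%, and at 100 bases 2.98% and 3.44%. No source used here gives the length of the reads, so how far reads of one gene were counted for the other was not tested, and the 2 genes' values are not independent to that extent. On the far sides, Ncf4, which encodes a subunit of the phagocyte oxidase, lies 19926 bp downstream of Csf2rb2 and was marked in every list, with 6557 bp in the replicated list. Tex33, 24552 bp downstream of Csf2rb, had no covered base in any list.

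Csf2ra (ENSMUSG00000059326), the alpha chain gene that completes the receptor of granulocyte-macrophage colony-stimulating factor, had no covered base in any list. It spans 4473 bp, chr19:61223957-61228429, on the minus strand near the end of the chromosome, and none of its 7 distinct 5′ ends was marked. The nearest block lay 83120 bp downstream in the replicated list, 83193 bp in replicate 1's and 83109 bp in replicate 2's, and no list held a block between the gene and the chromosome end upstream of it. The reference holds 0 unknown letters in the gene and 7.37% of its first 3 kb is repeat-masked, the lowest share of the 8 genes. How uniquely reads map there was not analysed here. The gene of the shared beta chain, Csf2rb, was thus marked in every list and that of the specific alpha chain in none.

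Csf3r (ENSMUSG00000028859) spans chr4:126024550-126044440 on the plus strand. It had 0 bp covered in the replicated list, 0 bp in replicate 1's, 3340 bp (16.8%) in replicate 2's and 3041 bp (15.3%) in the pooled list, with 1670 ± 2362 bp (SD, n = 2) over the replicates' own lists. Replicate 2's block, chr4:126023272-126027889, is 4618 bp long, runs from 1278 bp upstream to 3339 bp downstream of the outermost start and has a fold of 14.9, against a median of 4.70 in that list. The fold is thus well above that median, while replicate 1's list holds no peak there. The pooled list splits the region into blocks of 3072 and 1009 bp, with a highest fold of 9.13. In replicate 2's and the pooled list, 3 of 4 distinct 5′ ends lay inside a block and were marked.

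RefSeq's gene record of Csf3r begins at -1109 bp from the outermost GENCODE start, and that position is inside replicate 2's block, 169 bp from its edge. Of the 433 genes with a comparable block and no coding neighbour within 5 kb upstream in that list, 52 (12.0%) reached as far upstream as Csf3r. Mrps15, a mitochondrial ribosomal protein gene 2484 bp downstream of Csf3r, was marked in all 4 lists, with 1293 bp in the replicated list and 488 bp in replicate 1's. Of the neutrophil markers, 9 of 10 had no covered base in replicate 2's list, among them Ly6g, S100a8, S100a9, Mpo and Elane. Mmp8 had 769 bp there and 0 bp in replicate 1's list, and its part in the Csf3r value was not tested.

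Flt3 and Kit had no covered base in any list. Flt3 (ENSMUSG00000042817) spans 69749 bp, chr5:147330741-147400489, on the minus strand and has 1 distinct 5′ end. The nearest block upstream of it was 30635 bp away in the replicated list, 30920 bp in replicate 1's and 28743 bp in replicate 2's, around the start of its neighbour Pan3, 29671 bp away, which had 83159 bp covered in the replicated list. Urad, 8300 bp downstream, had none. Kit (ENSMUSG00000005672) spans 81807 bp, chr5:75574916-75656722, on the plus strand with 8 distinct 5′ ends. The nearest blocks in the replicated list were 530660 bp upstream and 484320 bp downstream of Kit. Its neighbours on both sides, the receptor tyrosine kinase genes Pdgfra and Kdr, had none either. Kit thus lay far from any block, and Flt3 beside a gene with long coverage.

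For the genes with blocks in both replicates, every base of replicate 1's list within the gene and 5 kb on both sides was also in replicate 2's. The shared bases made up 39.8% of replicate 2's for Csf1r, 42.6% for Csf2rb and 31.7% for Csf2rb2. As a Jaccard index, shared bases over bases in either list, this is 0.398, 0.426 and 0.317, where the median over 6783 coding genes covered in both was 0.591. Replicate 2's list covered 2.51 times as many bases of Csf1r as replicate 1's, 2.35 times as many of Csf2rb and 3.15 times as many of Csf2rb2, against a median of 1.65 over those genes. As a description of each list, with no comparison of the folds, the mean fold weighted by bases was 11.8 and 20.1 for Csf1r in replicates 1 and 2, 6.83 and 28.5 for Csf2rb, and 4.97 and 14.3 for Csf2rb2. The lists as a whole cover 63.5 and 114.1 Mb, and all 3 ratios lie above the median gene's, in the direction of the larger list.

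Csf1 and Csf3r belong to the 1756 of 8421 coding genes marked in replicate 2's list (20.9%) that had no base in replicate 1's. The opposite case was 9 of 6517 (0.138%). Of the 1756, 1130 also had no base in the replicated list, Csf1 and Csf3r among them. For Csf3r the Jaccard index of 0.0824 rests on 488 shared bases that belong to Mrps15, and for Csf1 it was 0.

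The coding genes whose coverage was most like that of each gene were found by the Jaccard index over 100 bp bins from 5 kb before to 25 kb after the start, with the lists of the 2 replicates stacked. For Csf1r these were Mgea5 (0.725) and Ppp4r3b (0.717), for Csf2rb Hsd17b11 (0.867) and Iws1 (0.864), and for Csf2rb2 Rmc1 (0.865) and Rabif (0.850). For Csf3r they were Tefm (0.637) and Thbs1 (0.600), and for Csf1 Etfdh (0.954) and Atg16l2 (0.951). The window of Csf3r also holds the blocks of its neighbour Mrps15, so its indices are not those of the Csf3r block alone. The index describes position only, over the lists of 2 libraries. Replicate 1's list covered 0 bp of Csf1 and Csf3r and of Etfdh, Atg16l2, Tefm and Thbs1. The indices of Csf1 thus rest on replicate 2's list alone.

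The genes with which these receptors work were counted in 7 lists. Of the 82 genes in them, 53 were marked in the replicated list, 52 in replicate 1's, 57 in replicate 2's and 57 in the pooled list, beside backgrounds of 32.9%, 29.7%, 38.4% and 37.0% of coding genes. The median of covered bases over the 82 genes was 5314 bp in the replicated list, against 0 over all coding genes. In the replicated list no ligand or sister receptor gene was marked, and most genes of the signalling machinery inside the cell were.

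Of 8 ligand genes, 0 were marked in the replicated list, 0 in replicate 1's and 1, Csf1, in replicate 2's. Il34, the other ligand of Csf1r, had no covered base in any list. Nor had Csf2 and Csf3, which encode granulocyte-macrophage and granulocyte colony-stimulating factor, Flt3l, the ligand of Flt3, or the cytokine genes Il3 and Il5. Kitl, the ligand of Kit, had 601 bp in replicate 1's list, where it was not marked, and 0 bp in the other 3. Of 9 partner and sister receptors, 0 were marked and none had a covered base in any list. Among them are the alpha chain genes Il3ra and Il5ra, which pair with the beta chain of Csf2rb, the tyrosine kinase genes Pdgfra, Pdgfrb, Kdr, Flt1 and Flt4, and the cytokine receptor gene Epor. With Csf2ra, none of the 3 alpha chain genes that pair with the marked beta chain gene carried a block.

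Of 7 Jak and Stat genes, which relay signals from the cytokine receptors, 6 were marked in the replicated list, 6 in replicate 1's and 7 in replicate 2's. Jak1 had 69774 bp covered in the replicated list, Stat5b 41962 bp and Stat3 28264 bp. Stat5a had 0 bp in the replicated list, 0 bp in replicate 1's and 2155 bp in replicate 2's. Of 17 adaptor and Ras pathway genes, the lists marked 16, 16 and 17. The scaffold gene Gab2 had 135851 bp covered in the replicated list and the adaptor gene Grb2 62511 bp, while Gab1 had 14061 bp in replicate 2's list and 0 bp in replicate 1's and the replicated list.

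Of 15 genes of the PI3K, Src-family and phospholipase arm, 13 were marked in each of the 3 lists. The Src-family kinase gene Lyn had 67473 bp in the replicated list, the PI3K regulatory subunit gene Pik3r1 61052 bp and the phospholipase gene Plcg2 59054 bp, and the kinase genes Fgr and Src had no covered base. Of 12 negative regulators, 8, 8 and 9 were marked. The ubiquitin ligase genes Cblb and Cbl, of which Cbl acts on the activated Csf1r protein, had 96247 and 63249 bp and the phosphatase gene Inpp5d 48057 bp. The cytokine-induced inhibitor genes Socs1, Socs2 and Cish had no covered base, and Socs3 had 2030 bp in replicate 2's list and 0 bp in replicate 1's and the replicated list. Of 14 genes of transcription factors known to act on myeloid receptor genes, the lists marked 10, 9 and 10. Runx1 had 202317 bp in the replicated list, Mitf 80897 bp and Fli1 76891 bp, whereas the progenitor, erythroid and mast cell factor genes Myb, Gata1 and Gata2 had no covered base, nor had Klf4. Bhlhe40 was marked in the replicated list and in replicate 2's but had 0 bp in replicate 1's.

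**Figure D4:**
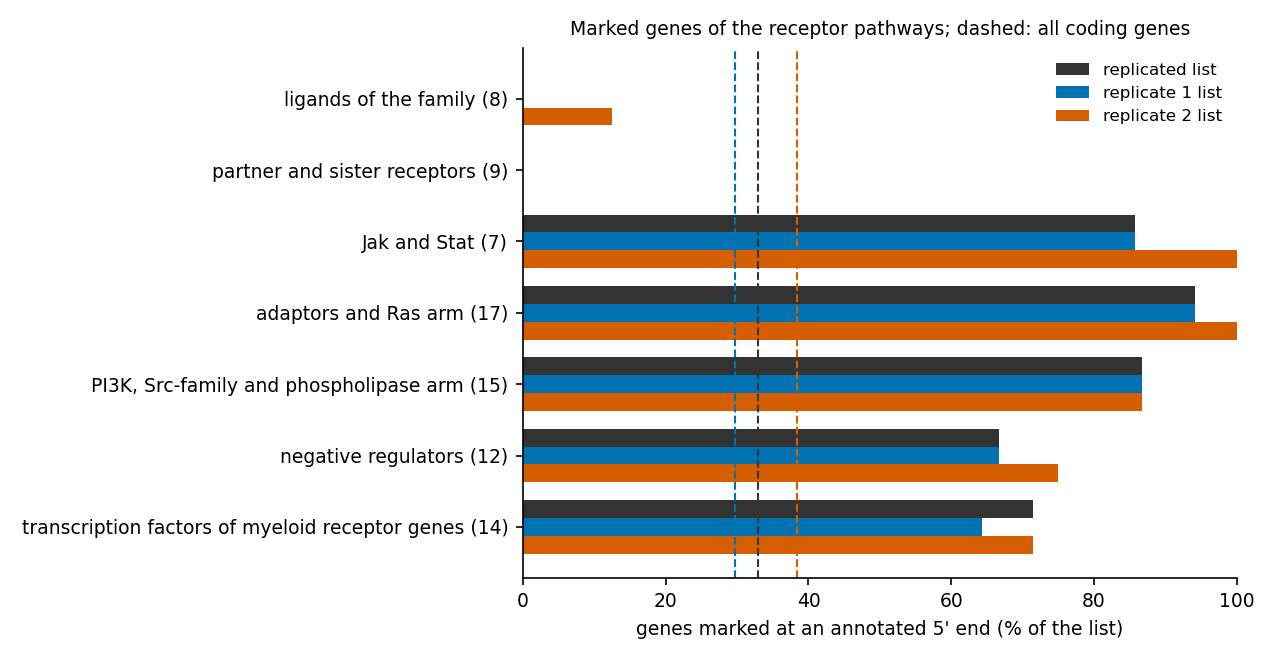
Share of genes marked at an annotated 5′ end (horizontal axis, percent) in each of the 7 lists of pathway genes, with the number of genes in brackets, for the replicated list and each replicate's list, and dashed lines at the share of all coding genes in the same list. Bars of the 5 lists of signalling and transcription factor genes pass the lines, the ligands stay below them, and the partner and sister receptors have no bar.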

How the data were processed

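H3K79me2 peaks of 2 BMDM libraries were analysed as deposited. Each list gives peak positions on mm10, a display score of at most 1000 deposited by the authors and not used, the authors' fold over the control as a linear ratio, and the deposited −log10 q of each peak. Per the deposited text notes, the lists were made from the alignments of replicate 1, of replicate 2 or of both. For the aligner, peak caller, thresholds, read length and rule of the replicated list: not given in the sources used here. Because depth is unknown, no interval is given.

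Peaks of a list that overlap or touch were merged and placed on GENCODE M21 on GRCm38 (Python 3.11.15, numpy 2.4.6, matplotlib 3.10.9, Biopython 1.88 for alignment). The code was tested on simulated data. No test was made with 1 group of 2 replicates. The replicated list was the main list. Alternatives were the other lists, stricter peaks, other windows, minimums and transcript sets, and joined gaps. The genes, the pathway and marker lists and the rules were chosen with earlier results of these data known. Named are the 8 genes, all ligands and partner receptors, up to 3 marked genes with most covered bases and up to 3 unmarked in list order for each other pathway list, neighbouring genes and the 2 genes most alike. Some genes that this takes are not reported here. Cish, Klf4 and Bhlhe40 were named after their values were seen. RefSeq promoters are of GRCm38.p6.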

Additional observations from a re-analysis of the deposited data

How the results depend on the processing

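The count of marked genes among the 8 turned on replicate 2. It was 3 in the replicated list, 3 without replicate 2 and 5 without replicate 1, where Csf1 and Csf3r were added, and 5 in the pooled list. At the outermost 5′ end it was 2 in the replicated list, 2 to 4 over the lists that leave out 1 replicate, and 4 in the pooled list. The cause was not tested. Of the 82 pathway genes 53 were marked, and 52 to 57 over the lists that leave out 1 replicate. Both counts over the 8 genes stayed within 1.5 times with peaks of at least a list's median fold, peaks with a −log10 q of at least 3, other windows and other minimums, as did the count at any 5′ end with other transcript sets. Within that range, the count at the outermost 5′ end rose from 2 to 3 with a window of 5 kb. The pathway count stayed within 1.5 times with other minimums and in the pooled list. Of 40 alternative values of covered bases 7 moved by at least the SD of the replicates' own values, each between lists. That SD comes from lists that are themselves alternatives. For Csf1 and Csf3r, with 0 bp in the replicated list and in replicate 1's, a move without replicate 1 was therefore fixed in advance. The values of Csf2ra, Flt3 and Kit were 0 throughout. Of 16 values of the longest block 4 moved, those of Csf1r and Csf2rb2 with peaks joined across gaps of up to 500 and 2000 bp. Of 9 values of agreement 4 moved, each when shared bases were divided by replicate 1's list. Depth limits what a list without a peak can show. No paired analysis was possible because there is 1 group and no test.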
